A study of Homo sapiens with 10 samples.

Results

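Tumour T2, labelled resistant to the Smac mimetic SM-164, was compared with tumour T6, labelled sensitive to it. The pair was chosen by the likeness of their expression values over all genes, and holds 4 arrays, 2 of each tumour, out of the 10 arrays of the study. T2 and T6 are cells taken from separate MDA-MB-231 xenografts that had regrown in SCID mice after 5 mg/kg SM-164 into the vein on 5 days a week for 2 weeks. The same treatment lay behind both, so the groups differ in the tumour and in the response the labels give it. The study also holds the resistant tumour T3, the sensitive tumour T8 and the cultured parental cells, which are labelled sensitive, with 2 arrays each. MDA-MB-231 is a widely used human cell line of triple-negative breast cancer. 1 tumour stands behind each group and the labels do not name separate cultures for its arrays, so a p-value here measures the spread between arrays, which may be technical, and is about these tumours and not about resistance in general.

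SM-164 mimics Smac (DIABLO), the mitochondrial protein that binds the inhibitor of apoptosis (IAP) proteins. When a Smac mimetic binds cIAP1 (BIRC2) and cIAP2, the ubiquitin ligases destroy themselves, RIPK1 at the TNF receptor is freed to join FADD and caspase-8, and TNF made by the cancer cell itself can kill it. XIAP blocks the caspases directly and c-FLIP (CFLAR) holds caspase-8 in check. LRIG1, a membrane protein that promotes the breakdown of receptor tyrosine kinases such as EGFR and MET, is the gene that earlier work on this model tied to the response.

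The question put to the pair is which genes separate a resistant from a sensitive tumour when most of the profile is shared. Values are log2 expression values, in which 1 unit is a doubling of signal. Among the 14929 genes tested, the means of T2 and T6 correlated at 0.995 across genes, and the median absolute difference was 0.127, against 0.133 between the arrays of T2 themselves and 0.0722 between those of T6. Of all pairs among the 4 tumours, T2 and T6 had the fewest genes 1 log2 unit or more apart, 47, with 429 between T2 and T3 at the other end. These values chose the pair, so they are a description with no test, and the differences below are those left in a pair chosen for being close. VIM stood at 14.38 and 14.37 in T2 and 14.29 and 14.34 in T6, CD44 at 12.44 and 12.54 in T2 and 12.30 and 12.25 in T6 and KRT18 at 13.54 and 13.59 in T2 and 13.27 and 13.40 in T6, while PGR and FOXA1 stayed under log2 5 on each of these arrays. The line is known as mesenchymal and hormone receptor negative. ESR1, the oestrogen receptor gene, was nevertheless above log2 5 at 6.77 and 6.54 in T2 and 6.63 and 6.75 in T6, GATA3, a factor of luminal cells, at 7.70 and 7.68 in T2 and 8.32 and 8.14 in T6, where it was called lower in T2, and ERBB2 at 9.22 and 9.15 in T2 and 9.12 and 9.11 in T6. EPCAM also lay above log2 5. That level is below the median probe set of each of these arrays (5.47 to 5.55), so passing it does not show expression.

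Genes are said to be called where limma gave an adjusted p under 0.05 (Benjamini-Hochberg). T2 was higher in 460 genes, 3.08% of those tested, and lower in 952, or 6.38%, which is 9.46% in both directions. Genes higher in T2 were 32.6% of those called, and 49.5% (971 higher, 991 lower) when quantile normalisation was repeated on the values. Most of the called differences were small, with a median size of 0.40 log2. Only 47 called genes, 0.315% of those tested, lay 1 log2 unit or more apart, 13 of them higher and 34 lower in T2. The 2 arrays of T2 lay on one side of the 2 arrays of T6 in all 1412 called genes, and also in 55.2% of all genes tested, so the lack of overlap alone says little. The number of calls depended on single arrays: 777 genes were called without T2 replicate 1, 449 without T6 replicate 1 and 428 without T6 replicate 2. The number 1 log2 unit or more apart stayed between 45 and 53 whichever array was left out.

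**Figure D1:**
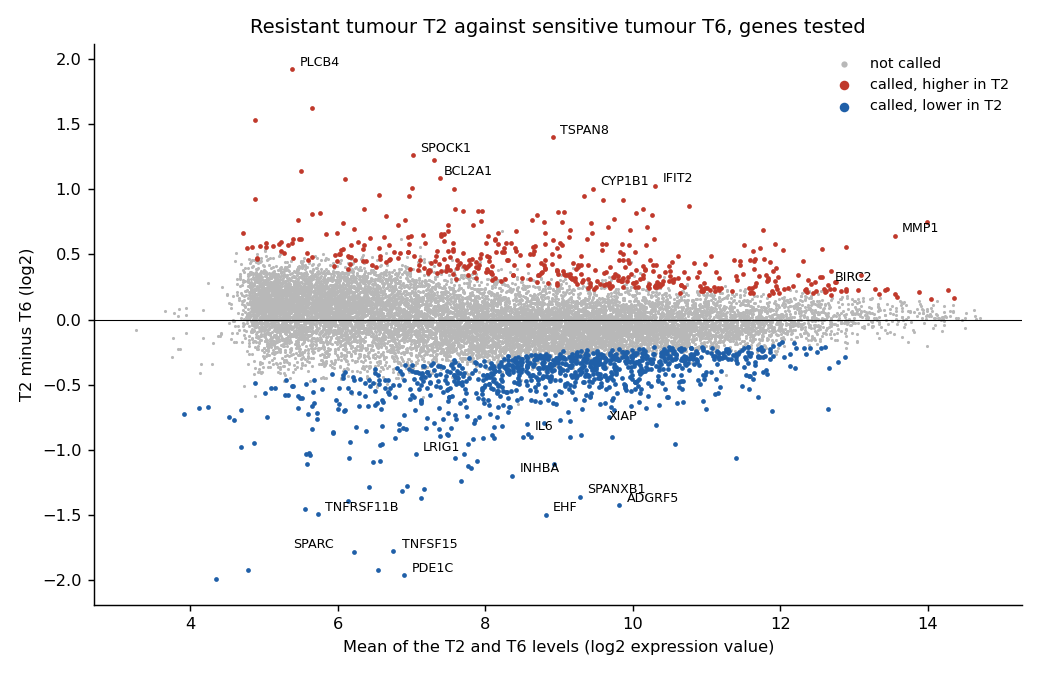
Each point is 1 of the 14929 genes tested, with the mean of its T2 and T6 levels (log2 expression value) on the horizontal axis and the T2 minus T6 difference (log2) on the vertical axis. Red points are the 460 genes called higher in T2, blue points the 952 called lower, and grey points the rest. PLCB4 at 1.92 and PDE1C at -1.96 lie near the ends of the range.

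Among genes that reached a mean of log2 6 in the higher tumour, PLCB4, VXN, TSPAN8, SPOCK1 and BCL2A1 had the largest rises in T2. PLCB4, a phospholipase C that acts below G protein-coupled receptors, had levels of 6.07 and 6.63 on the T2 arrays and 4.35 and 4.50 on the T6 arrays. Both T2 arrays lay above both T6 arrays, with a log2 difference of 1.92 ± 0.17 (SE), adjusted p = 1.33e-05, but both T6 arrays lay under log2 5, the level a gene had to reach to be tested, so the size of the difference is uncertain. The T6 arrays of VXN and LCK also lay under it. VXN, known in frogs and mice from nerve cell differentiation, had 6.21 and 6.72 in T2, against 4.99 and 4.70 in T6, a difference of 1.62 ± 0.17 (SE), adjusted p = 3.54e-05. TSPAN8, a tetraspanin of the cell surface, stood at 9.56 and 9.66 in T2, against 8.19 and 8.24 in T6, a difference of 1.40 ± 0.093 (SE), adjusted p = 6.55e-07. The extracellular proteoglycan SPOCK1 had 7.50 and 7.81 in T2, against 6.47 and 6.31 in T6, and differed by 1.26 ± 0.14 (SE), adjusted p = 4.93e-05. In each of these the groups were separate, and the tumours lay further apart than the arrays of either one.

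BCL2A1, an anti-apoptotic BCL2 protein, had 7.78 and 8.06 in T2, against 6.82 and 6.58 in T6, a difference of 1.22 ± 0.14 (SE), adjusted p = 9.38e-05. LCK, a Src family kinase best known from T cells, rose by 1.14 ± 0.16, and JCAD, a protein of cell junctions, by 1.09 ± 0.14. ARHGAP20 rose by 1.08 ± 0.15, and RASGRP3, which switches on Ras in response to diacylglycerol, by 1.01 ± 0.14. CYP1B1, a cytochrome P450 of hormone and hydrocarbon metabolism, had 10.05 and 9.88 in T2, against 8.96 and 8.96 in T6, a difference of 1.0 ± 0.076. Its T2 arrays were therefore the higher ones, although both tumours lay below the parental mean of 11.87. TTLL11, an enzyme that adds glutamates to tubulin, rose by 1.0 ± 0.095, the amino acid transporter subunit SLC3A1 by 0.96 ± 0.14, the replication factor GINS4 by 0.95 ± 0.16 and the heparan sulfate sulfotransferase HS6ST3 by 0.95 ± 0.13. IFIT2, an interferon-induced protein, completed the 15 largest rises at 1.03 ± 0.10. In these 15 genes the adjusted p was at most 0.00189. With every probe set of a gene averaged, the difference shrank by more than 1.5 times in VXN (0.92), CYP1B1 (0.62), TTLL11 (0.29) and GINS4 (0.27), and GINS4 lost its call, there and with unmoderated variances, its adjusted p running from 2.72e-07 to 0.127 over all alternatives.

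Among genes that reached the same level, PDE1C, FAM133A, SPARC, TNFSF15 and EHF had the largest falls, and 6 of the 15 with the largest falls lie on chromosome X. PDE1C, a phosphodiesterase that breaks down cyclic nucleotides, had levels of 6.03 and 5.81 on the T2 arrays and 7.97 and 7.80 on the T6 arrays. The T2 arrays were the lower ones, with a difference of -1.96 ± 0.10 (SE), adjusted p = 8.85e-08. SPARC, a secreted matrix glycoprotein, stood at 5.42 and 5.25 in T2, against 7.24 and 6.99 in T6, a difference of -1.78 ± 0.15 (SE), adjusted p = 5.24e-06. TNFSF15, the TNF family ligand TL1A, had 5.76 and 5.97 in T2, against 7.66 and 7.62 in T6, a difference of -1.78 ± 0.11 (SE), adjusted p = 2.67e-07. EHF, an ETS factor of epithelial cells, had 8.10 and 8.05 in T2, against 9.62 and 9.52 in T6, a difference of -1.50 ± 0.10 (SE), adjusted p = 5.97e-07. In all of these the groups were separate.

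TNFRSF11B, osteoprotegerin, a soluble decoy receptor for RANKL and TRAIL, had 4.96 and 5.00 in T2, against 6.22 and 6.73 in T6, a difference of -1.50 ± 0.15 (SE), adjusted p = 2.74e-05. The adhesion receptor ADGRF5 stood at 9.01 and 9.20 in T2, against 10.57 and 10.49 in T6, a difference of -1.43 ± 0.082 (SE), adjusted p = 1.48e-07. FAT3, an atypical cadherin, fell by 1.37 log2, the mitochondrial arginase ARG2 by 1.32 and the microtubule-linked kinase DCLK1 by 1.27. The other 6 of the 15 lie on chromosome X: FAM133A (-1.92 ± 0.10), the nucleosome-binding protein HMGN5 (-1.46 ± 0.14), the BMP antagonist CHRDL1 (-1.39 ± 0.11), the cancer-testis gene SPANXB1 (-1.36 ± 0.076), the translation termination factor GSPT2 (-1.30 ± 0.11) and NHSL2 (-1.28 ± 0.14). The mean over probe sets gave smaller differences for PDE1C (-1.09), SPARC (-1.05), EHF (-1.0), HMGN5 (-0.73), NHSL2 (-0.51), DCLK1 (-0.47) and ARG2 (-0.74). TNFRSF11B stood at -0.83 on the probe set left without those ending in _s_at or _x_at, and ARG2 at -0.16 there, where its call ended, with an adjusted p of 6.02e-07 to 0.551 over all alternatives. HMGN5 and TNFRSF11B (4.961 and 4.999) lay under log2 5 on both T2 arrays, so the size of their falls is uncertain. Large differences were also seen in 3 genes that stayed under the level of log2 6 set for naming: NAP1L3 (-1.99), TENM2 (-1.92) and OLR1 (1.53). TENM2 reached log2 5 only on the T6 arrays, with 3.73 and 3.93 in T2. OLR1 reached it only on the T2 arrays, with 4.10 and 4.12 in T6. Both were thus tested only through the tumour where they are high, and their calls say nothing firm.

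**Figure D2:**
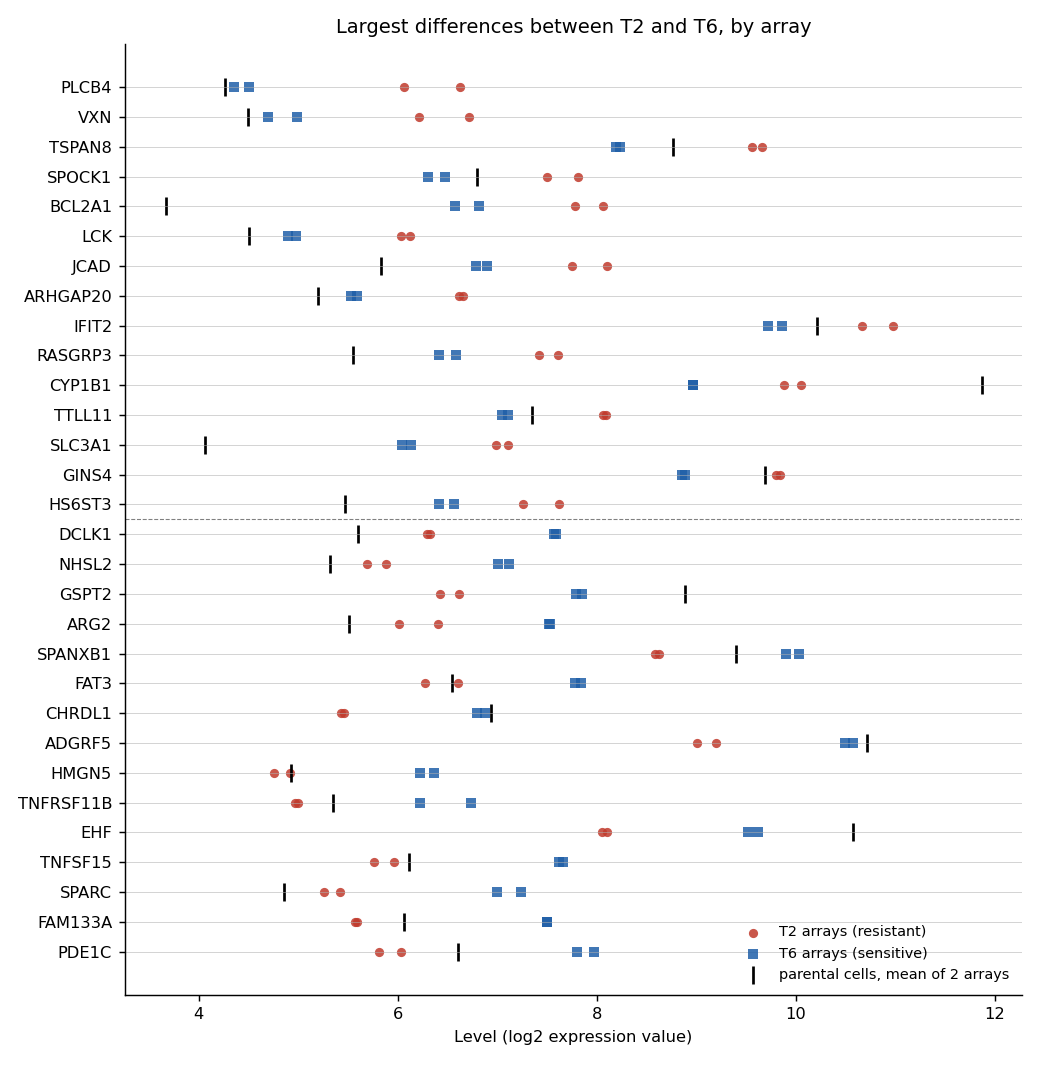
Levels (log2 expression value) of the 15 genes with the largest rises, above the dashed line, and the 15 with the largest falls in T2. Red circles are the 2 T2 arrays, blue squares the 2 T6 arrays and black ticks the mean of the 2 parental arrays. The red and blue points of a gene do not overlap, and the parental tick lies nearer to T6 in 13 of the 15 rises and nearer to T2 in 10 of the 15 falls.

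Among the direct targets of SM-164 the pair moved in opposite ways. BIRC2, the ubiquitin ligase cIAP1, stood at 12.72 and 12.84 in T2, against 12.49 and 12.53 in T6 and was higher in T2 by 0.27 ± 0.058 (SE), adjusted p = 0.00925. XIAP, the caspase inhibitor, had 9.15 and 9.31 in T2, against 9.95 and 9.81 in T6 and was lower in T2, with a difference of -0.65 ± 0.13 (SE), adjusted p = 0.00465. The T2 and T6 arrays were apart in both genes, and the gap in BIRC2, although called, came to a fold of 1.21. BIRC7, a further IAP protein, was at a low level, 5.08 and 4.90 in T2, against 5.54 and 5.60 in T6, and lower in T2, with a difference of -0.58 ± 0.13 (SE), adjusted p = 0.011. DIABLO, the natural antagonist of these proteins, did not pass the test at 11.32 and 11.45 in T2, against 11.48 and 11.53 in T6 (-0.12 ± 0.063 (SE), adjusted p = 0.275). Of 9 IAP proteins and antagonists tested, 1 (11.1%) was called higher and 2 (22.2%) lower, against 3.08% and 6.38% of all genes tested. Of the 6 other probe sets of XIAP, 5 were lower in T2 by 0.53 to 0.88, and the remaining one, at 0.03, lay under log2 5 on all 4 arrays. With 1 array left out, the calls of BIRC2 (without T6 replicate 1 and T6 replicate 2, adjusted p 0.000282 to 0.153 over all alternatives), XIAP (without T6 replicate 1, adjusted p 6.22e-05 to 0.138 over all alternatives) and BIRC7 (without T2 replicate 2, T6 replicate 1 and T6 replicate 2, adjusted p 0.0025 to 0.119 over all alternatives) ended. Centred medians, variances without a trend and unmoderated variances also ended the call of BIRC2, and unmoderated variances that of XIAP.

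In the TNF receptor complex 4 regulators were lower in T2 and no member was called higher. CYLD, the deubiquitinase that trims ubiquitin chains from RIPK1, had 8.07 and 8.29 in T2, against 8.76 and 8.81 in T6, a difference of -0.60 ± 0.10 (SE), adjusted p = 0.00134. CFLAR, which restrains caspase-8, had 9.71 and 9.81 in T2, against 10.01 and 10.09 in T6, a difference of -0.29 ± 0.07 (SE), adjusted p = 0.0187. SHARPIN and IKBKG (NEMO) fell by 0.27 and 0.29, IKBKG lying on chromosome X, where 31.9% of tested genes were called lower. In each of these the T2 arrays were the lower ones. TNF, the ligand on which killing by a Smac mimetic rests, was low throughout at 5.15 and 4.93 in T2, against 4.67 and 4.88 in T6 (0.26 ± 0.16 (SE), adjusted p = 0.318). Its T2 arrays lay just above its T6 arrays, and the test was not passed. Its receptor TNFRSF1A stood at 10.66 and 10.74 in T2, against 10.59 and 10.66 in T6 (0.078 ± 0.063 (SE), adjusted p = 0.468). FADD differed by 0.054 ± 0.075 and CASP8 by -0.25 ± 0.12, and neither passed the test. Of the 13 other probe sets of CFLAR, 8 were higher in T2, by 0.041 to 0.13, and 5 lower. In all, 0 of 24 members were called higher and 4 (16.7%) lower, against 3.08% and 6.38% of all genes tested. The median difference was -0.04, against -0.01 over all genes tested. 1 array decided the calls of CFLAR (without T2 replicate 1, T6 replicate 1 and T6 replicate 2, adjusted p 0.0168 to 0.535 over all alternatives), SHARPIN (without T2 replicate 1, T2 replicate 2, T6 replicate 1, T6 replicate 2, T8 replicate 1 and T8 replicate 2, adjusted p 0.0253 to 0.221 over all alternatives) and IKBKG (without T2 replicate 2, T6 replicate 1, T6 replicate 2, T8 replicate 1 and T8 replicate 2, adjusted p 0.00536 to 0.214 over all alternatives). Lost under other settings was CYLD (probe sets ending in _s_at or _x_at left out and unmoderated variances, adjusted p 0.000418 to 0.0631 over all alternatives). Averaged over all probe sets of a gene, the difference was -0.073 for CFLAR. RIPK1, TRAF2 and BIRC3 were not analysed here.

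TRAIL and its receptors were not called. TNFRSF10A is the exception among the alternatives, at 0.22 when quantile normalisation was repeated (adjusted p 0.0396 to 0.63 over all alternatives). TNFSF10 (TRAIL) had 7.67 and 7.78 in T2, against 7.96 and 7.78 in T6 (-0.14 ± 0.10 (SE), adjusted p = 0.42), and both tumours lay below the parental mean of 10.15. The receptors TNFRSF10A and TNFRSF10B differed by 0.15 ± 0.085 and -0.11 ± 0.079, neither called. Of 13 death ligands and receptors, the decoy receptor TNFRSF11B was the single member called, and it was lower in T2. This is 7.69%, against 9.46% of all genes tested called in both directions. Of 16 BCL2 family members, 2 were called higher (12.5%, against 3.08% of all genes tested) and 0 lower, with a median of -0.01. Beside BCL2A1, the pro-apoptotic BH3 protein PMAIP1 (NOXA) had 12.72 and 12.95 in T2, against 12.28 and 12.31 in T6, a difference of 0.54 ± 0.072 (SE), adjusted p = 0.000259, so a survival and a death gene of the family were both higher in T2. PMAIP1 (unmoderated variances, adjusted p 1.71e-06 to 0.0504 over all alternatives) lost the call under other settings.

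LRIG1 was lower in the resistant tumour. On its brightest probe set it had 6.40 and 6.68 in T2, against 7.73 and 7.42 in T6, with a parental mean of 7.51. Both T2 arrays lay below both T6 arrays, and the difference was -1.03 ± 0.14 (SE), adjusted p = 0.000409, a fold of 2.05. The 3 other probe sets for LRIG1 differed by -0.24 to 0.23, and 2 of them lay under log2 5 on all 4 arrays. The remaining one had 5.80 and 5.63 in T2, against 5.38 and 5.58 in T6, a difference of 0.23. Averaged over probe sets the difference was -0.25 and the call ended, as it did with unmoderated variances, adjusted p running from 1.29e-05 to 0.115 over all alternatives. In the other pair LRIG1 was lower in T3 than in T8, at -0.98 ± 0.14, and the difference between the pairs was -0.054 ± 0.20, adjusted p = 0.922.

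EGFR and MET are receptors that LRIG1 is known to act on, and neither had a call that held under all alternatives. EGFR had 10.70 and 10.88 in T2, against 10.64 and 10.65 in T6 (0.14 ± 0.075 (SE), adjusted p = 0.26), and its 8 other probe sets differed by -0.13 to 0.30. It was called, at 0.20, when quantile normalisation was repeated (adjusted p 0.0276 to 0.787 over all alternatives). MET stood at 11.85 and 12.10 in T2, against 11.64 and 11.63 in T6 and was called higher by 0.34 ± 0.078 (SE), adjusted p = 0.0134. TGFA, a ligand of EGFR, was higher at 10.49 and 10.61 in T2, against 9.90 and 9.78 in T6, by 0.71 ± 0.075 (SE), adjusted p = 3.54e-05, while NRG1, a ligand of the related ERBB receptors, was lower, with a difference of -0.34 ± 0.068 (SE), adjusted p = 0.00658. Of 25 receptor tyrosine kinases and EGFR ligands, 2 were called higher and 1 lower, or 8% and 4%, against 3.08% and 6.38% of all genes tested. Downstream, EGR1, an immediate early gene induced by ERK signalling, had 9.98 and 10.14 in T2, against 9.11 and 9.18 in T6, a difference of 0.91 ± 0.084 (SE), adjusted p = 1.39e-05. FOSL2, an AP-1 subunit, rose by 0.36 ± 0.077 and MYC fell by 0.25. The ERK list as a whole had 2 of 26 members (7.69%) higher and 1 (3.85%) lower, against 3.08% and 6.38% of all genes tested. TGFA shrank to 0.45 over all its probe sets. Without probe sets ending in _s_at or _x_at NRG1 turned to 0.048. Leaving out 1 array ended the calls of MET (without T2 replicate 2, T6 replicate 1 and T6 replicate 2, adjusted p 0.000454 to 0.319 over all alternatives), NRG1 (without T2 replicate 1, T6 replicate 1 and T6 replicate 2, adjusted p 0.000403 to 0.872 over all alternatives), FOSL2 (without T6 replicate 1 and T6 replicate 2, adjusted p 0.000323 to 0.102 over all alternatives) and MYC (without T2 replicate 1, T6 replicate 1 and T6 replicate 2, adjusted p 0.00295 to 0.228 over all alternatives). Averaged over all probe sets of a gene, the difference was 0.24 for FOSL2, 0.14 for MET and -0.10 for NRG1. It was 0.21 for MET without T2 replicate 2.

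Interferon-induced genes were the group with the most members higher in T2. Type I interferon acts through the factor ISGF3, which binds a promoter sequence built on a repeat of GAAA, and the products include RNA sensors and proteins that block viral translation. Of 39 interferon response genes tested, 14 (35.9%) were called higher and 2 (5.13%) lower in T2, against 3.08% and 6.38% of all genes tested, with a median difference of 0.13, against -0.01 over all genes tested. The list was chosen with earlier results of these data known. IFIT1, which blocks translation of viral RNA, had 11.15 and 11.25 in T2, against 10.32 and 10.33 in T6, a difference of 0.87 ± 0.074 (SE), adjusted p = 7.69e-06. Its neighbour IFIT2 had 10.66 and 10.97 in T2, against 9.86 and 9.72 in T6, a difference of 1.03 ± 0.10 (SE), adjusted p = 1.87e-05. OASL, an antiviral protein of the oligoadenylate synthetase family, had 10.66 and 10.67 in T2, against 9.89 and 9.85 in T6, a difference of 0.80 ± 0.074 (SE), adjusted p = 1.47e-05, and DDX60, a helicase of RNA sensing, had 8.99 and 9.22 in T2, against 8.22 and 8.40 in T6, a difference of 0.80 ± 0.10 (SE), adjusted p = 0.000236. The T2 arrays were the higher ones in all of these. Not every interferon gene took part: IFI27 (-0.63) and BST2 (-0.43) were called lower, and 23 members were not called, MX1 (0.14) and OAS1 (0.18) among them, all 4 named after their values were seen. The number called higher was 14 without T2 replicate 1, 12 without T2 replicate 2, 11 without T6 replicate 1 and 10 without T6 replicate 2, and it was 9 with unmoderated variances, the lowest of all alternatives.

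The promoters of 3 of the genes higher in T2 are shown because they carry the letters of the interferon-responsive element. They run from 250 bases before to 50 after the start of the gene (RefSeq, GRCh38.p14, 5′ to 3′ on the gene's strand), and capitals mark the letters searched, GAAA followed by any 2 bases and GAAA again, or TTTC, any 2 bases and TTTC, which is the same on the opposite strand. IFIT1 lies on the plus strand at chr10:89392373-89392672, IFIT3, chosen after its values were seen, on the plus strand at chr10:89327747-89328046, and DDX60 on the minus strand at chr4:168318703-168319002.
IFIT1: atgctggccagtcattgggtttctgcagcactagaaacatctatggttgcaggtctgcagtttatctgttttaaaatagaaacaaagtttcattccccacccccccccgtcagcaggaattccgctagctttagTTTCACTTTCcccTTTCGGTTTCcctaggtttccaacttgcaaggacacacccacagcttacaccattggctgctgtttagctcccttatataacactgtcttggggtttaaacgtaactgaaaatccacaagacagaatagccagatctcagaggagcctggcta
IFIT3: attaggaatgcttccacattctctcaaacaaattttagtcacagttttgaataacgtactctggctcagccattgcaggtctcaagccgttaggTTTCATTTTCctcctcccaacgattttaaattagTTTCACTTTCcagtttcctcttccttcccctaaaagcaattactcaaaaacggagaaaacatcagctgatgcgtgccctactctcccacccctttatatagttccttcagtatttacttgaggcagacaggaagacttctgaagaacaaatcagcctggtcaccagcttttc
DDX60: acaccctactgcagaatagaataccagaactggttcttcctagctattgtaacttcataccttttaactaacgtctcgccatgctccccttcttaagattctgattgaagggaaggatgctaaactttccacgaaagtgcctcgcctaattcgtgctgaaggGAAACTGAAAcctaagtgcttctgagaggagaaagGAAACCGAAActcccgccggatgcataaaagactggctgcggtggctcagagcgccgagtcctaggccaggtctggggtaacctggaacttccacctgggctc
Each of the 3 windows holds 2 matches. Of the 14 interferon genes higher in T2, 12 had a promoter in the table and 9 of these (75%) held the letters. They were held by 9 of 16 (56.2%) members not called and by both members called lower, against 2.73% of the promoters of all genes tested and 3.65% of all 27305 promoters. Members of the list that were called higher, lower or not at all thus all included promoters with these letters.

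The interferon genes did not move this way in the other pair. Between T3 and T8, 0 of the 39 were called higher and 14 lower, where 4.66% and 13.8% of all genes tested were called. Of the 14 genes higher in T2, 7 were lower in T3 than in T8 and 7 not called. The difference between the pairs was itself called in 18 members with the higher value in T2 minus T6 and 1 with the lower, against 6.66% and 4.66% of all genes tested. For IFIT1 it was 1.35 ± 0.11, adjusted p = 1.49e-06, and for OASL 1.58 ± 0.10, adjusted p = 3.19e-07.

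All the genes of antigen presentation that were called were lower in T2. CD74, the chaperone of class II molecules, had 8.01 and 7.38 in T2, against 8.37 and 8.47 in T6, a difference of -0.73 ± 0.14 (SE), adjusted p = 0.00589. HLA-DPA1, a class II chain, had 5.86 and 5.38 in T2, against 6.76 and 6.60 in T6, a difference of -1.06 ± 0.15 (SE), adjusted p = 0.000532. HLA-DMA, which loads peptides, and HLA-DRA fell by 0.76 and 0.70. The T2 arrays were the lower ones in each, and they lay further apart from each other than the T6 arrays did. Both tumours lay below the parental means, which were 11.11 for CD74 and 9.20 for HLA-DRA. Of 11 class II genes, 5 (45.5%) were called lower, against 6.38% of all genes tested, and 0 higher. The count was 5 without T2 replicate 1, 3 without T2 replicate 2, 3 without T6 replicate 1 and 2 without T6 replicate 2, and it was 0 with unmoderated variances. Class I genes were called lower in 2 of 17 (11.8%, against 6.38% of all genes tested): the immunoproteasome subunits PSMB8 and PSMB9 fell by 0.48 and 0.48. CD74 stood at -0.41 without T2 replicate 2 and HLA-DPA1 at -0.51 over all its probe sets. With 1 array left out, the calls of CD74 (without T6 replicate 2, adjusted p 2.97e-05 to 0.342 over all alternatives) and HLA-DRA (without T2 replicate 2, T6 replicate 1 and T6 replicate 2, adjusted p 0.00027 to 0.139 over all alternatives) ended. Lost under other settings were HLA-DPA1 (unmoderated variances, adjusted p 4.54e-05 to 0.0649 over all alternatives) and HLA-DMA (unmoderated variances, adjusted p 9.84e-05 to 0.0617 over all alternatives). The mean over probe sets gave -0.20 for CD74. It was -0.40 for HLA-DRA without T2 replicate 2.

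**Figure D3:**
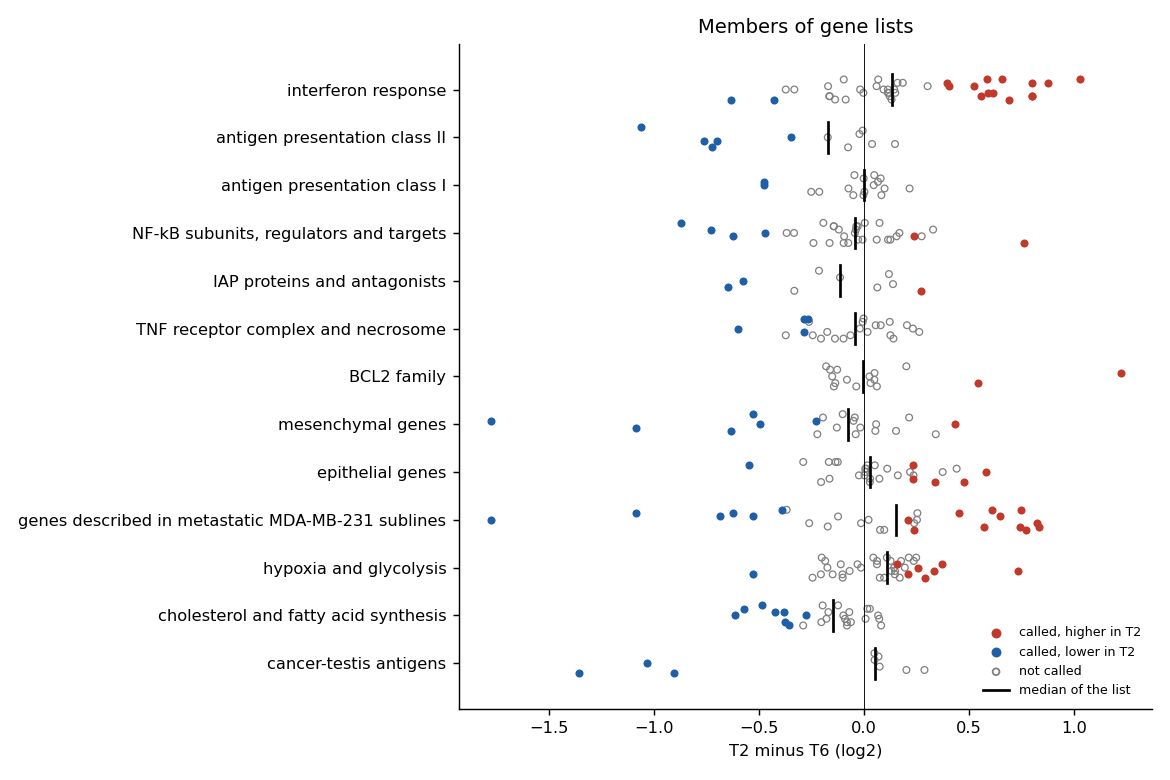
Each row is a gene list and each point 1 tested member at its T2 minus T6 difference (log2). Red points were called higher and blue points lower in T2, open points were not called, and the bar is the median of the list. The interferon row holds 14 red and 2 blue points, and the class II and cholesterol rows hold 5 and 8 blue points with no red one.

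Of the cytokines called, IL6, IL1B, CXCL1 and CXCL2 were lower in T2 and CCL5 and IL11 higher, CXCL2 and IL11 being named after their values were seen. IL6 had 8.09 and 8.18 in T2, against 8.96 and 9.06 in T6, a difference of -0.87 ± 0.09 (SE), adjusted p = 3.31e-05. IL1B, interleukin-1 beta, had 7.22 and 7.22 in T2, against 7.84 and 8.06 in T6, a difference of -0.73 ± 0.10 (SE), adjusted p = 0.000492. The chemokine CXCL1 fell by 0.62, while CCL5, a chemokine for T cells and monocytes, stood at 7.32 and 7.26 in T2, against 6.59 and 6.47 in T6 and rose by 0.76 ± 0.13. Of 32 NF-kB subunits, regulators and targets, 2 (6.25%) were called higher and 4 (12.5%) lower, against 3.08% and 6.38% of all genes tested, with a median of -0.04. 1 array decided the call of CXCL1 (without T2 replicate 1, T6 replicate 1 and T6 replicate 2, adjusted p 0.00151 to 0.184 over all alternatives). CCL5 (the mean over probe sets and unmoderated variances, adjusted p 0.000123 to 0.0688 over all alternatives) lost the call under other settings. Averaged over all probe sets of a gene, the difference was 0.49 for CCL5.

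In the TGF-beta family, a ligand and an antagonist fell while a binding protein and a target rose. INHBA, the chain of activin A, had 7.69 and 7.83 in T2, against 8.98 and 8.94 in T6, a difference of -1.20 ± 0.10 (SE), adjusted p = 9.11e-06. NOG, the BMP antagonist noggin, had 8.07 and 8.28 in T2, against 9.11 and 9.04 in T6, a difference of -0.90 ± 0.093 (SE), adjusted p = 3.26e-05. LTBP1, which stores latent TGF-beta in the matrix, rose by 0.82 ± 0.091 (SE), adjusted p = 5.48e-05 and ID3, a target of BMP signalling, by 0.61 ± 0.087 (SE), adjusted p = 0.000497. Arrays of the tumours did not overlap in any of these. Across the pathway 7 of 40 genes (17.5%) were called higher and 4 (10%) lower, against 3.08% and 6.38% of all genes tested. The number higher was 6 without T2 replicate 1, 5 without T2 replicate 2, 2 without T6 replicate 1 and 3 without T6 replicate 2, 13 when quantile normalisation was repeated and 1 without probe sets ending in _s_at or _x_at.

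Most of the mesenchymal genes called were lower in T2. Beside SPARC, TNC (tenascin C), a matrix protein of wounds and tumours, had 5.94 and 6.12 in T2, against 7.07 and 7.17 in T6, a difference of -1.09 ± 0.12 (SE), adjusted p = 4.86e-05. S100A4, a calcium-binding protein tied to cell motility, fell by 0.63 and TGFBI, an adhesion protein induced by TGF-beta, by 0.53. Of 20 mesenchymal genes, 6 (30%) were called lower and 1 higher, a count lower of 5 without T2 replicate 1, 6 without T2 replicate 2, 5 without T6 replicate 1 and 5 without T6 replicate 2. Of 35 collagens and matrix glycoproteins, 4 (11.4%) were called higher and 5 (14.3%) lower. Beside both lists, 3.08% of all genes tested were called higher and 6.38% lower. SPOCK1 was among those higher, and LAMA1 (-0.95, under log2 5 on both T2 arrays), COL8A1 (-0.69) and the proteoglycan VCAN (-0.64) were among those lower. With all probe sets averaged TNC stood at -0.37. No longer called with 1 array fewer were LAMA1 (without T6 replicate 1, adjusted p 0.000556 to 0.0839 over all alternatives) and VCAN (without T2 replicate 1, T6 replicate 1 and T6 replicate 2, adjusted p 0.000954 to 0.214 over all alternatives). Another setting ended the call of TNC (the mean over probe sets, adjusted p 3.11e-06 to 0.0521 over all alternatives).

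Epithelial genes went both ways, with 17.9% of those tested called higher and 3.57% lower, against 3.08% and 6.38% of all genes tested. The tight junction protein CLDN7 had 8.47 and 8.34 in T2, against 8.93 and 8.99 in T6, a difference of -0.55 ± 0.082 (SE), adjusted p = 0.000663. EPCAM, an adhesion molecule of carcinomas, was higher at 8.96 and 9.25 in T2, against 8.57 and 8.47 in T6, by 0.58 ± 0.15 (SE), adjusted p = 0.0232, as were MUC1 (0.48 ± 0.10) and CD24 (0.34 ± 0.082). Of 28 members, 5 were called higher and 1 lower, and the count higher was 4 without T2 replicate 1, 2 without T2 replicate 2, 0 without T6 replicate 1 and 1 without T6 replicate 2. Leaving out 1 array ended the calls of EPCAM (without T2 replicate 2, T6 replicate 1 and T6 replicate 2, adjusted p 0.000677 to 0.215 over all alternatives), MUC1 (without T2 replicate 1, T6 replicate 1 and T6 replicate 2, adjusted p 0.00549 to 0.0982 over all alternatives) and CD24 (without T2 replicate 2, T6 replicate 1 and T6 replicate 2, adjusted p 0.000824 to 0.152 over all alternatives).

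Metalloproteinases and integrins that were called were higher in T2. MMP1, interstitial collagenase, was high in both tumours, at 13.82 and 13.93 in T2, against 13.28 and 13.17 in T6, with a parental mean of 9.11, and its difference was 0.65 ± 0.073 (SE), adjusted p = 6.56e-05. MMP10 was low, at 5.80 and 5.90 in T2, against 5.28 and 4.89 in T6, and rose by 0.77 ± 0.15. The inhibitor TIMP3 fell by 0.51. Of 19 metalloproteinases and TIMPs, 2 (10.5%) were thus higher and 1 (5.26%) lower, against 3.08% and 6.38% of all genes tested. The integrins ITGB4, the laminin-binding chain, and ITGA2, a collagen-binding chain, were the 2 of 16 called (12.5% higher, against 3.08% of all genes tested). ITGB4 had 9.54 and 9.43 in T2, against 8.65 and 8.66 in T6, a difference of 0.83 ± 0.077 (SE), adjusted p = 1.55e-05. ITGA2 rose by 0.57 ± 0.074. ITGB4 shrank to 0.43 over all probe sets. Genes described earlier in metastatic sublines of MDA-MB-231 gave 11 of 28 (39.3%) higher and 6 (21.4%) lower, against 3.08% and 6.38% of all genes tested. ADIRF rose most among them, at 0.83 ± 0.10, and SPARC and TNC fell most. The count higher was 10 without T2 replicate 1, 8 without T2 replicate 2, 7 without T6 replicate 1 and 7 without T6 replicate 2, and the count lower 3 without T2 replicate 1, 5 without T2 replicate 2, 3 without T6 replicate 1 and 3 without T6 replicate 2. With 1 array left out, the call of MMP10 (without T6 replicate 2, adjusted p 0.00166 to 0.121 over all alternatives) ended.

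Markers of other cells were read beside these groups, since matrix genes are also made by stroma. The labels do not give the share of host cells in the isolates. The hosts were mice and the markers are human genes, so the values below cannot give that share either. In bulk RNA, fewer cells of a type and less RNA per cell cannot be told apart. Of 11 endothelial markers tested, 2 (18.2%, against 6.38% of all genes tested) were called lower in T2 and the rest were not called. ENG had 6.66 and 6.40 in T2, against 7.21 and 7.31 in T6, a difference of -0.73 ± 0.13. CDH5, the defining cadherin of endothelium, lay under log2 5 on all 4 arrays, at 3.54 and 3.56 in T2, against 4.14 and 4.40 in T6, and was tested through its level in T8, so its call says nothing firm about T2 and T6. With the filter applied to the T2 and T6 arrays alone, 1 member was called lower. The endothelial list of 13 measured markers summed to 75.2 to 76.7 in T2 and 75.4 to 76.1 in T6. Fibroblast and pericyte markers summed to 78.4 to 78.6 in T2 and 77.7 to 77.8 in T6, with 1 of 9 tested (11.1%) called lower. Macrophage markers summed to 59.4 to 60.4 in T2 and 58.7 to 59.9 in T6, with 0 called. Blood and lymphocyte markers summed to 38.5 to 39.1 in T2 and 36.7 to 36.8 in T6, with CD3D, chosen after its values were seen, called higher and PTPRC, the defining marker of white blood cells, under log2 5 on each array. LCK, among the largest rises, is also a gene of lymphocytes. In the fibroblast, macrophage and blood lists 4, 5 and 3 markers stayed under that level on all 4 arrays. The part of other cells in the differences was not tested. 1 array decided the call of ENG (without T6 replicate 2, adjusted p 0.000333 to 0.193 over all alternatives). Averaged over all probe sets of a gene, the difference was -0.31 for ENG.

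Phospholipase C and prostaglandin signalling held 4 genes higher and 3 lower of 33, or 12.1% and 9.09%, against 3.08% and 6.38% of all genes tested. Below PLCB4, RGS2, which switches off the G proteins that drive PLCB enzymes, had 9.39 and 9.59 in T2, against 8.76 and 8.84 in T6, a difference of 0.69 ± 0.087 (SE), adjusted p = 0.000187. The prostaglandin F receptor PTGFR was low, with T6 arrays under log2 5, and rose by 0.66 ± 0.15. PTGS2 (COX-2), which makes prostaglandins, had 6.51 and 6.77 in T2, against 6.06 and 6.07 in T6, a difference of 0.57 ± 0.12 (SE), adjusted p = 0.00951, both tumours lying above the parental mean of 4.03. The count higher was 4 without T2 replicate 1, 4 without T2 replicate 2, 3 without T6 replicate 1 and 2 without T6 replicate 2 and the count lower 1 without T2 replicate 1, 2 without T2 replicate 2, 1 without T6 replicate 1 and 1 without T6 replicate 2. No longer called with 1 array fewer were PTGFR (without T2 replicate 1 and T6 replicate 2, adjusted p 0.00547 to 0.166 over all alternatives) and PTGS2 (without T2 replicate 2, T6 replicate 1 and T6 replicate 2, adjusted p 0.00515 to 0.0829 over all alternatives).

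All the genes of cholesterol and fatty acid synthesis that were called were lower in T2. NSDHL, a sterol dehydrogenase encoded on chromosome X, had 8.35 and 8.27 in T2, against 8.86 and 8.99 in T6, a difference of -0.62 ± 0.079 (SE), adjusted p = 0.000196. INSIG1, the sterol-regulated brake on this pathway, had 8.32 and 8.73 in T2, against 9.14 and 9.05 in T6, a difference of -0.57 ± 0.11 (SE), adjusted p = 0.00576. SCD, the stearoyl-CoA desaturase, fell by 0.49 and the mevalonate pathway kinase PMVK by 0.42. Of 26 members 8 (30.8%, against 6.38% of all genes tested) were called lower and 0 higher, and 20 of the 26 differences were negative, with a median of -0.15. The count lower was 4 without T2 replicate 1, 9 without T2 replicate 2, 3 without T6 replicate 1 and 4 without T6 replicate 2, and 3 with unmoderated variances. Leaving out 1 array ended the calls of INSIG1 (without T2 replicate 1 and T6 replicate 1, adjusted p 0.000263 to 0.122 over all alternatives), SCD (without T6 replicate 1, adjusted p 0.000807 to 0.0839 over all alternatives) and PMVK (without T6 replicate 1, adjusted p 0.00187 to 0.05 over all alternatives). The difference was -0.36 for INSIG1 without T2 replicate 1. Hypoxia and glycolysis genes gave 7 of 37 higher and 1 lower, and the count higher was 9 without T2 replicate 1, 2 without T2 replicate 2, 1 without T6 replicate 1 and 2 without T6 replicate 2. Cell cycle genes gave 3 of 40 (7.5%) in each direction, beside the same 3.08% and 6.38%. None of 23 NRF2 targets, 14 ABC transporters or 12 serpins and plasminogen activators was called, against 9.46% of all genes tested.

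Chromosome X stood out in the order of the genes. Of 476 tested genes on it, 152 (31.9%) were called lower in T2 and 8 higher, against 6.38% and 3.08% of all genes tested. Without chromosome X, 5.55% of 14415 genes were called lower and 3.12% higher. When quantile normalisation was repeated, 955 genes outside it were called higher and 835 lower, so which direction is the more frequent there depends on the scaling. Over windows of 21 neighbouring tested genes, the 7 windows with the lowest medians in the genome all lay on this chromosome. The longest stretch of 21-gene blocks with medians below 0 on this chromosome ran from NLGN3 to LAGE3 and held 231 tested genes. Of these, 117 (50.6%) were called lower and 3 higher, with a median difference of -0.35. The run was bounded by the same differences, so its counts are a description and no test. 17 genes named here lie in this run, XIAP among them, and all are lower in T2. Most of them were named by that difference. The share of chromosome X called lower was 19.1% without T6 replicate 1, 19.5% without T6 replicate 2 and 15.8% with unmoderated variances, and up to 39.6% over the other alternatives.

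The lowest window, from TIMM8A to RAB9B, had 19 of 21 genes called lower and a median of -0.67. BEX2, of the brain-expressed X-linked family, had 7.02 and 7.09 in T2, against 8.32 and 8.28 in T6, a difference of -1.24 ± 0.094 (SE), adjusted p = 2.87e-06. Its neighbours of the armadillo repeat family fell by 0.92 for ARMCX5, 0.90 for ARMCX2 and 0.90 for ARMCX1, and RAB9B, a GTPase of vesicle traffic, by 0.84. The next window, JPX to FAM133A, had a median of -0.51 and 13 genes called lower. NAP1L3 had 3.42 and 3.29 in T2, against 5.54 and 5.16 in T6, FAM133A 5.59 and 5.57 in T2, against 7.50 and 7.50 in T6, and the respiratory chain subunit COX7B, a widely expressed gene, 11.43 and 11.65 in T2, against 12.22 and 12.25 in T6. SH3BGRL fell by 1.11 there. The T2 arrays lay below the T6 arrays in each of these, and those of NAP1L3 lay under log2 5, so the size of its fall is uncertain. Another setting ended the calls of ARMCX1 (unmoderated variances, adjusted p 2.19e-06 to 0.0565 over all alternatives) and ARMCX5 (unmoderated variances, adjusted p 2.92e-05 to 0.0651 over all alternatives).

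The medians of T2 minus parental and T6 minus parental over the run were -0.40 and -0.09, and those of T3 and T8 minus parental were 0.14 and 0.05, all of which share the parental arrays. T2 had the lowest of these medians. T3 minus T8 had a median of 0.07 there. Cancer-testis antigens, many of which are encoded on this chromosome, gave 3 of 9 (33.3%) lower and 0 higher: SPANXB1, MAGEC1 (-1.04) and CT83 (-0.91), all 3 in the same run. The share lower was 6.38% of all genes tested and 31.9% on chromosome X.

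Chromosome 2 showed the opposite at one end. The first 420 tested genes, from SH3YL1 to MRPS5, are its longest stretch of 21-gene blocks with medians above 0. Of these, 82 (19.5%) were called higher and 5 (1.19%) lower in T2, against 3.08% and 6.38% of all genes tested. In 370 of the 420 the difference was positive, and the median was 0.18. The next 399, from ZNF514 to PNKD, are the longest such stretch below 0. They had 8 (2.01%) called higher and 47 (11.8%) lower, with a median of -0.09. Both stretches were bounded by the differences they hold, so these counts are a description. Among the genes of the first stretch were RASGRP3, CYP1B1, SLC3A1, LTBP1, TGFA, FOSL2 and EPCAM, and among those of the second CFLAR, CASP8 and IL1B. The highest window in the genome, LINC02580 to PIGF, lay in the first stretch with a median of 0.31 and 6 of 21 genes called higher: SLC3A1, the mRNA decay factor ZFP36L2 (0.52), PIGF (0.45), SRBD1 (0.42) and THADA (0.34) were the largest of these. Medians over the first stretch were 0.35 for T2 and 0.20 for T6 minus parental, and -0.05 for T3 minus T8. 1 array decided the calls of SRBD1 (without T2 replicate 2, T6 replicate 1 and T6 replicate 2, adjusted p 0.00058 to 0.137 over all alternatives) and THADA (without T2 replicate 2, T6 replicate 1 and T6 replicate 2, adjusted p 0.00401 to 0.214 over all alternatives). Lost under other settings were ZFP36L2 (the mean over probe sets and unmoderated variances, adjusted p 3.75e-05 to 0.212 over all alternatives) and PIGF (probe sets ending in _s_at or _x_at left out, adjusted p 3.19e-05 to 0.125 over all alternatives). Averaged over all probe sets of a gene, the difference was 0.20 for THADA and 0.17 for ZFP36L2.

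The longest stretch of 21-gene blocks with medians below 0 on chromosome 3 held 462 tested genes, from IL5RA to LRRC58. Of these, 74 (16%) were called lower and 2 higher, against 6.38% and 3.08% of all genes tested, with a median of -0.11. The stretch was bounded by the differences it holds, so its counts are a description and no test. T3 minus T8 had a median of -0.07 there. LRIG1 and COL8A1 lie in that stretch. As whole chromosomes, 18 (17.1%), 21 (13.9%) and 20 (13.1%) had larger shares called lower than chromosome 3 (12.4%). A window on chromosome 11, TRIM68 to HPX, had the next highest median, 0.26, with 1 gene called higher, TRIM6 (0.50), and 1 lower, the sphingomyelinase SMPD1 (-0.38). SMPD1 turned to 0.24 without probe sets ending in _s_at or _x_at. No longer called with 1 array fewer was SMPD1 (without T6 replicate 1 and T6 replicate 2, adjusted p 0.00558 to 0.484 over all alternatives). The mean over probe sets gave -0.093 for SMPD1. DNA copies were not measured in these files.

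**Figure D4:**
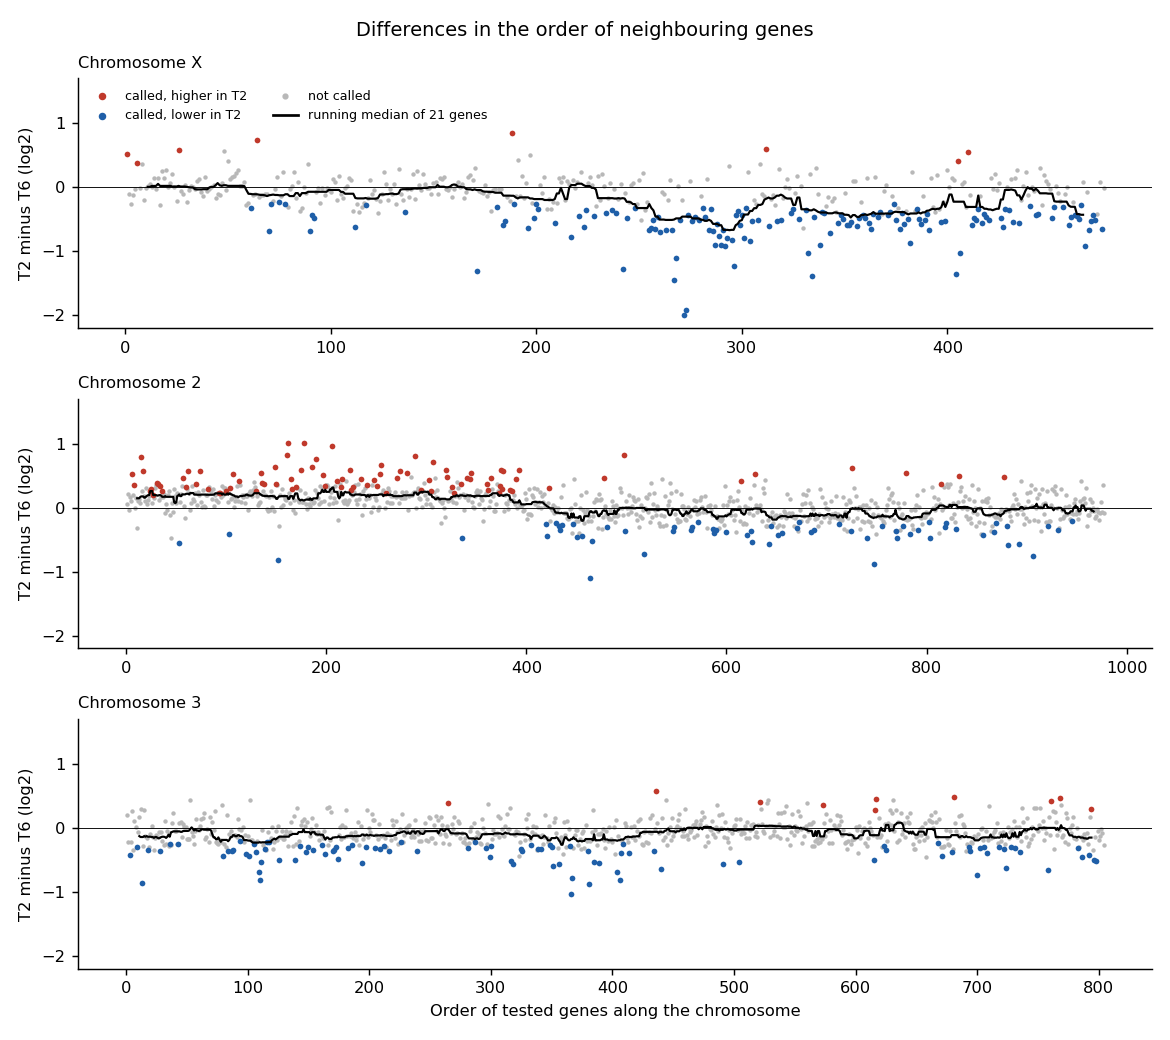
T2 minus T6 difference (log2) of each tested gene against its order along chromosomes X, 2 and 3. Red and blue points were called higher and lower in T2, grey points were not called, and the line is the running median of 21 genes. The line lies below 0 over the later part of chromosome X and above 0 over the earlier part of chromosome 2.

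The other resistant and sensitive pair shared part of these calls and opposed others. T3 minus T8 gave 2750 calls (18.4%), 696 higher and 2054 lower, on arrays that T2 minus T6 does not use. Of the 460 genes higher in T2, 45 (9.78%) were also called higher in T3, against 4.66% of all genes tested, and these are 6.47% of the 696. Of the 952 lower in T2, 226 (23.7%) were called lower in T3, against 13.8% of all genes tested, or 11% of the 2054. Calls were opposite in 117 genes higher in T2 and lower in T3 (25.4% of 460, 5.70% of 2054), against 13.8% of all genes tested. Another 91 were lower in T2 and higher in T3 (9.56% of 952, 13.1% of 696), against 4.66% of all genes tested. Whatever the call in T3 minus T8, its sign was the same in 181 of the 460 (39.3%) and in 612 of the 952 (64.3%). Over all genes tested it was the same in 8956 of 14929 (60.0%). The difference between the pairs was called in 1691 genes (11.3%), 995 with T2 minus T6 the higher and 696 with it the lower. That balance turned without T2 replicate 2 (754 higher, 895 lower) and without T3 replicate 1 (656 higher, 717 lower). The total was 947 without T6 replicate 1, 935 without T6 replicate 2, 1032 without T8 replicate 1 and 1049 without T8 replicate 2.

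Among the 30 largest differences, 9 had the same direction in both pairs by a call in each: PLCB4, SPOCK1, ARHGAP20 and TTLL11 were higher and PDE1C, SPARC, TNFRSF11B, FAT3 and DCLK1 lower in the resistant tumour. SPOCK1 differed by 1.26 ± 0.14 in T2 minus T6 and by 1.47 ± 0.14 in T3 minus T8, and SPARC by -1.78 ± 0.15 and -1.81 ± 0.15. For these the difference between the pairs was not called, at -0.21 ± 0.19, adjusted p = 0.594 for SPOCK1 and 0.027 ± 0.21, adjusted p = 0.962 for SPARC. Opposite directions, called in both pairs, were found in 11. TNFSF15 was -1.78 ± 0.11 in T2 minus T6 and 1.04 ± 0.11 in T3 minus T8, ADGRF5 -1.43 ± 0.082 and 1.26 ± 0.082, and BCL2A1 1.22 ± 0.14 and -0.87 ± 0.14. The difference between the pairs was called in 23 of the 30. These genes were picked by T2 minus T6, which is part of that difference, so the number is raised by the choice. XIAP and BIRC2 were not called in T3 minus T8 (0.18 ± 0.13 and -0.12 ± 0.058), and the difference between the pairs was -0.83 ± 0.18, adjusted p = 0.00674 for XIAP and 0.39 ± 0.082, adjusted p = 0.00608 for BIRC2.

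**Figure D5:**
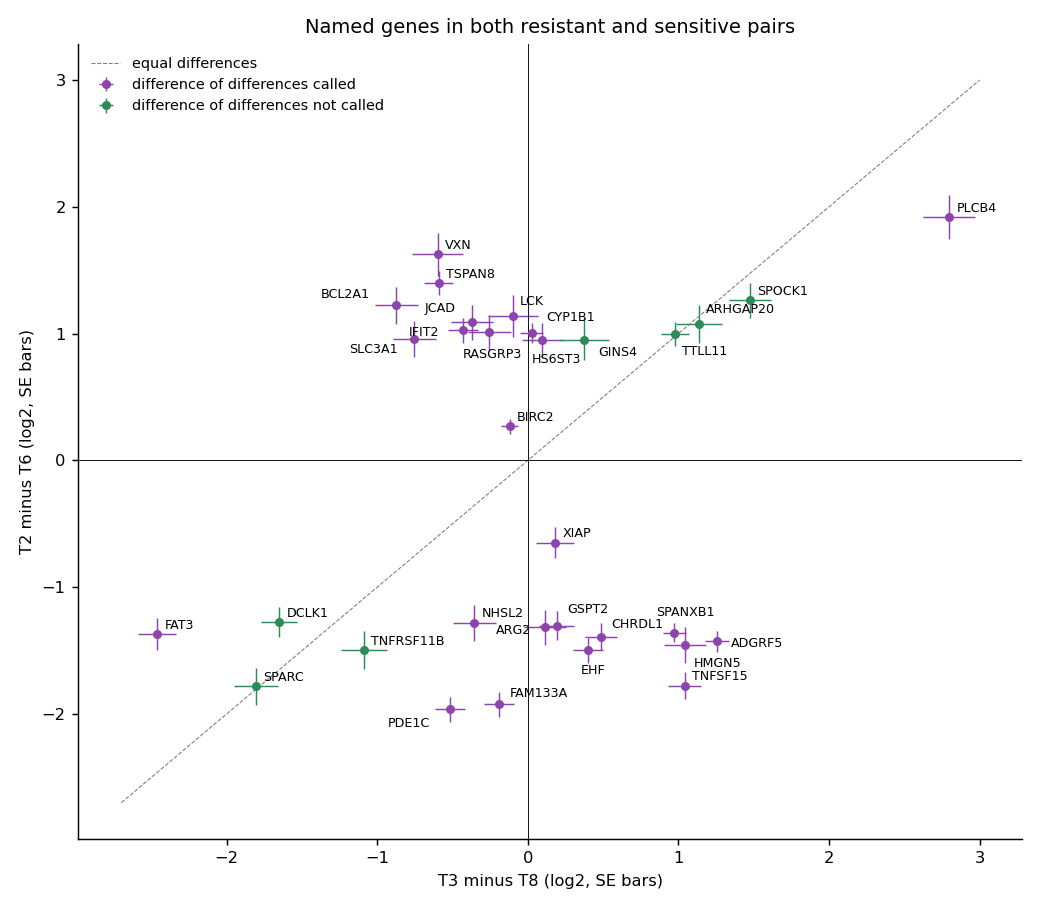
T2 minus T6 (vertical, log2) against T3 minus T8 (horizontal, log2) for the 30 largest differences and for XIAP and BIRC2, with SE bars. Purple points have a called difference between the pairs and green points do not. Genes at the lower left and upper right, SPARC and PLCB4 among them, have one direction in both pairs, and those elsewhere, TNFSF15 and BCL2A1 among them, have opposite ones.

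Against the parental level, the largest rises and falls differed in which tumour lay nearer. T6 was the nearer of the tumours in 13 of the 15 largest rises and in 5 of the 15 largest falls, a description over shared parental arrays. BCL2A1 was 7.92 in T2, 6.70 in T6 and 3.67 in parental cells, so both tumours lay above the cells they came from. SPARC was 5.34 in T2, 7.12 in T6 and 4.85 in parental cells, with T2 the nearer to them. EHF ran the other way, at 8.07 in T2, 9.57 in T6 and 10.58 in parental cells.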

How the data were processed

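Total RNA (5 ug a sample) was measured on Affymetrix expression arrays, 2 for each of 5 lines. The values are the authors' deposited log2 expression values, made with RMA, affy and limma per the submitters' processing notes, and were not normalised again. Of 54675 probe sets, 41091 have 1 gene symbol in the platform annotation, of which 41037 were matched to RefSeq symbols, 1801 have several, 11721 have none and 62 are controls. Each of 19775 genes was read from its brightest probe set, judged by the mean of all arrays, and 14929 that reached log2 5 on 2 or more arrays were tested. Precision is limited by the number of arrays.

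A model with 1 mean per line was fitted to all 10 arrays in limma 3.58.1 (R 4.3.3) with moderated variances and a trend, and p-values were adjusted over all genes tested (Benjamini-Hochberg). The code was tested on simulated data. Tables and figures were made in Python 3.11.15. The differences are T2 minus T6, T3 minus T8, and the first minus the second. Genes named are the 15 largest called differences in each direction whose arrays do not overlap and whose higher mean reaches log2 6, a set of genes of the SM-164 response, up to 4 called members of each list described (the 2 largest if none is called) and up to 5 of each window described. The members and lists were chosen with earlier results of these data known. Gene order is that of RefSeq and gives no coordinates beside those of the promoters. Replicate numbers were not used to pair the arrays: deviations of T2 and T6 arrays with the same number correlated at -0.14. Between other lines this correlation ran from -0.39 (T2 and parental) to 0.50 (T2 and T3), so some array structure is shared between lines. Alternatives changed the normalisation, the filter, the probe set rule, the variance model and the arrays used. BIRC3, TRAF2 and RIPK1 are not reported here.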

Additional observations from a re-analysis of the deposited data

Results flagged for a closer look

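Of the 112 genes named, 73 had a T2 minus T6 difference that was not the same as the T3 minus T8 difference, by the limma test of the difference between the pairs (adjusted p under 0.05 over all 14929 genes tested, 11.3% of which were called). It was positive in 32 and negative in 41, and in 52 the tumour pairs had opposite signs. Most of the named genes were picked by T2 minus T6, which is part of this test. Their share called is raised by that choice and cannot be set against the 11.3%. The value in parentheses is T2 minus T6 less T3 minus T8, in log2 units.

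T2 minus T6 was the higher, and the pairs had opposite signs, in VXN (2.22), TSPAN8 (1.99), BCL2A1 (2.10), LCK (1.24), JCAD (1.46), IFIT2 (1.46), RASGRP3 (1.26), SLC3A1 (1.71), IFIT1 (1.35), ADIRF (0.95), ITGB4 (1.66), OASL (1.58), ID3 (1.12), EPCAM (0.71), ZFP36L2 (0.57), TRIM6 (0.58), PIGF (0.52), SRBD1 (0.58), MET (0.53) and BIRC2 (0.39). It was the higher with one sign in both pairs in CYP1B1 (0.98), HS6ST3 (0.86), EGR1 (0.58), LTBP1 (0.73), DDX60 (0.79), CCL5 (0.68), TGFA (0.53), RGS2 (0.60), ITGA2 (0.43), S100A4 (0.37), CDH5 (1.09) and FAT3 (1.09). T2 minus T6 was the lower, with opposite signs, in TNFSF10 (-0.65), CFLAR (-0.40), PMVK (-0.79), SCD (-0.58), TGFBI (-0.80), CLDN7 (-0.91), INSIG1 (-0.63), BIRC7 (-0.61), CYLD (-0.76), XIAP (-0.83), COL8A1 (-1.09), COX7B (-0.77), IL1B (-1.0), ARMCX1 (-1.04), ARMCX2 (-1.26), NOG (-0.97), ARMCX5 (-1.02), LAMA1 (-1.28), MAGEC1 (-1.54), TNC (-2.91), SH3BGRL (-1.53), INHBA (-2.59), BEX2 (-1.61), GSPT2 (-1.50), ARG2 (-1.43), SPANXB1 (-2.33), CHRDL1 (-1.88), ADGRF5 (-2.68), HMGN5 (-2.50), EHF (-1.90), TNFSF15 (-2.82) and NAP1L3 (-4.01). It was the lower with one sign in both pairs in PLCB4 (-0.88), PTGS2 (-2.39), NSDHL (-0.48), HLA-DMA (-0.75), RAB9B (-0.62), CT83 (-0.73), NHSL2 (-0.93), FAM133A (-1.73) and PDE1C (-1.44). Whether the sign in each pair passed its own test is not part of this grouping.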

How the results depend on the processing

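Of 2528 values of named genes under alternatives, 2371 kept their direction and their side of the threshold, 153 kept the direction and lost the call, 2 gained one and 2 turned: NRG1 (0.048) and SMPD1 (0.24), both without probe sets ending in _s_at or _x_at. Of the 103 named genes called, 61 were called under every alternative, and so were 28 of the 30 largest differences, GINS4 and ARG2 being the exceptions. The 1412 genes called in T2 minus T6 became 776 with arrays centred on their medians (197 higher, 579 lower), 886 without a variance trend, 473 without moderation and 428 to 1631 when an array was left out (777 without T2 replicate 1, 449 without T6 replicate 1, 428 without T6 replicate 2). The 47 genes 1 log2 unit or more apart became 26 with the mean over probe sets, and 45 to 53 with an array left out. The 1691 genes called in the difference between the pairs became 890 with centred medians, 1123 without probe sets ending in _s_at or _x_at, 747 without moderation and 935 to 1823 with an array left out. The replicate number as a block gave 400 genes higher and 830 lower in T2. Among the named genes it ended the calls of EPCAM, SHARPIN, THADA and VCAN. With that block 1230 genes were called in all, and 1112 with the numbers of T6 crossed, an alternative chosen after seeing the data. The causes of these changes were not tested. With 2 arrays of 1 tumour on each side, the spread between tumours of one kind is not in any p-value here.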
